A study of Mus musculus with 16 samples.

Results

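Genes for potassium channel subunits, those with a Kcn symbol, were followed in mouse hearts with and without the long noncoding RNA Cardinal, before and after pressure overload. Members were the rows of the count table whose gene symbol begins with Kcn followed by letters and a number and whose summed raw count over the 16 libraries reached 160. This left 61 genes of the 93 with such a symbol and of the 55487 rows of the table. The other 32 stayed below that count, 4 of them at 0, and symbols of antisense and overlapping transcripts were left out. All 61 members passed the filter on low counts, which kept 18275 genes for testing.

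The 16 libraries came from the apex of the heart of 16 male mice of 25 to 30 g, taken 4 weeks after surgery, with 4 animals in each of 4 groups. Ctrl sham and Ctrl TAC mice had the genotype WT, and KO sham and KO TAC mice had the genotype CARDINAL-KO, the knockout of Cardinal (Gm12295 in the annotation). In transverse aortic constriction (TAC) the aorta is narrowed by a ligature tied around a needle, which puts the left ventricle under pressure overload, whereas the aorta of sham mice was left untied. Neither the strain nor the age of the animals is given in the labels. The comparisons ask whether pressure overload changes the transcripts of potassium channel subunits and whether the loss of Cardinal alters this.

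Potassium channels let potassium leave the cell and so repolarise the cardiac action potential and hold the resting potential. In the mouse ventricle the early repolarisation is carried by transient outward channels made of Kv4 subunits with KChIP2, the later one by other Kv channels, and the resting potential is set by inward rectifiers of the Kir2 family and by two-pore-domain (K2P) leak channels. Auxiliary subunits, among them the KChIP, Kv beta and KCNE proteins, do not form a pore and change the opening, closing or surface level of the channels they join. Lower transcript levels of several of these subunits, Kcnd2 and Kcnip2 among them, and a longer action potential are known features of the hypertrophied heart.

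Most members form the pore of a channel, and the others are auxiliary. In the annotated coding sequences (GENCODE M21, GRCm38, longest coding transcript of each gene), a search for the 5 codons of the potassium channel signature, which line the selectivity filter, found it in 49 of 49 pore-forming members and in 0 of 12 auxiliary members. It was present 1 time in 42 genes and 2 times in the 7 K2P members. The signature was taken as a threonine or serine codon, then a valine, isoleucine, leucine or threonine codon, a glycine codon, a tyrosine, phenylalanine or leucine codon, and a glycine codon. Pore-forming and auxiliary members were told apart by gene family, so this split describes the sequences and is no test. The 39 bases around it are given here for members the results turn on, with the 15 signature bases in capitals. Kcnv2 is shown because it had the lowest log2 fold change after TAC, Kcnd2, Kcnd3, Kcnj2 and Kcnj3 as members that fell in both genotypes, and Kcnj14 as the one that rose most.
Kcnv2: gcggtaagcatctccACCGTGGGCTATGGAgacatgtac
Kcnd2: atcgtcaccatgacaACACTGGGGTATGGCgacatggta
Kcnd3: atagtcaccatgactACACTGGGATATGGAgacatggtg
Kcnj2: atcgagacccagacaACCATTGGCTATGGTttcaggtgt
Kcnj3: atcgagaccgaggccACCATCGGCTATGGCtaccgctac
Kcnj14: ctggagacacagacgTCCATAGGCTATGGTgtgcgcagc

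Before the members are described, some facts of the libraries bear on them. Total counts ranged from 53169437 to 79404714 per library, and the 61 members together took 0.0850% to 0.119% of them. Cardinal itself was measured at 3.24 to 3.86 CPM in the Ctrl sham libraries (CPM are counts scaled to a common library size) and at 0.297 to 0.553 CPM in those labelled KO sham. In the Ctrl TAC libraries it was at 8.02, 2.69, 3.04 and 3.37 CPM, and in those labelled KO TAC at 0.371, 0.276, 0.368 and 4.55 CPM. The library labelled KO TAC 4 thus goes against its label, and the counts of calls, with the values of several members, are also given without it. By an exact two-sided permutation test, which cannot give a p below 0.0286 with 4 against 4 libraries, the comparison of Cardinal between KO sham and Ctrl sham gave p = 0.0286 (adjusted over 4 comparisons 0.114) and that between KO TAC and Ctrl TAC p = 0.114 (adjusted 0.229), and neither passed the test after adjustment. Ctrl TAC 2 stands apart from all others, with a second principal component of -62.5 against -3.40 to 13.8 elsewhere. Its summed markers of Schwann cells (11.5 CPM against 4.22 to 4.52 in the other Ctrl TAC libraries) and of adipocytes (4.36 CPM against at most 0.805 elsewhere) were also high, and results that rest on it are given without it.

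Marker genes of the heart's cell types were summed in each library. The 8 markers of ventricular cardiomyocytes were all present, at a summed level of 50922 to 58232 CPM in the sham libraries, 44655 to 48941 CPM in Ctrl TAC and 39374 to 39946 CPM in KO TAC. Myh6 weighs most in this sum, with means of 24607 CPM in Ctrl sham and 20046 CPM in Ctrl TAC. At an adjusted p under 0.05 in the edgeR test described below, 4 of the 8 were lower and 1, Actn2, higher in Ctrl hearts after TAC. In KO hearts 6 were lower and 0 higher. Those of fibroblasts (6 genes) summed to 486 to 549 CPM in sham, 692 to 991 CPM in Ctrl TAC and 997 to 1174 CPM in KO TAC, and those of macrophages and other leukocytes (6 genes) to 131 to 179.6 CPM, 183 to 234 CPM and 202 to 290.1 CPM. By the same test 3 of the 6 fibroblast markers were higher after TAC in Ctrl and 6 in KO hearts. Of the 6 leukocyte markers, 4 and 6 were higher. Markers of atrial cardiomyocytes (4 genes) summed to 1.12 to 3.35 CPM in any library. The 6 endothelial markers summed to 547 to 721 CPM, the 6 pericyte markers to 612 to 727 CPM and the 4 smooth muscle markers to 76.5 to 126 CPM over all libraries. At the same threshold 2 of the 6 pericyte markers were higher after TAC in each genotype. Of the 4 smooth muscle markers, 1 was higher in Ctrl and 2 in KO hearts. In these lists 0 were lower, and 0 endothelial markers were called. The part of these shifts in the results below was not tested. In RNA from whole tissue, fewer cells of a type and less RNA per cell cannot be told apart.

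In the unloaded control heart, the members spanned more than 3 orders of magnitude in CPM per kilobase of exon, a scale meant for comparing genes. It divides by the merged length of all annotated exons of a gene, not by that of the transcripts expressed, so the order of genes depends on the annotation. Kcnk3, a K2P leak channel, stood highest at 56.1 ± 3.62 CPM per kb (SD, n = 4), followed by Kcnip2, which encodes the auxiliary subunit KChIP2, at 47.4 ± 1.85, the silent subunit Kcng2 at 38 ± 0.243 and Kcnj11, the pore of the ATP-sensitive channel, at 34.7 ± 1.19. The ranges of these 4 genes over the libraries did not overlap. Kcnh2 (17.8 ± 2.53 CPM per kb, pore of the rapid delayed rectifier) and Kcnj3 (16.7 ± 1.8) overlapped, as did Kcnj8 (14 ± 0.957) and Kcnj5 (13.9 ± 1.5). In all, 8 members reached 10 CPM per kb, 22 reached 1 CPM per kb and 15 lay below 0.1 CPM per kb. The lowest was Kcnma1, the pore of the large-conductance calcium-activated channel, at 0.00998 ± 0.00178 CPM per kb over 16976 bases of merged exon.

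**Figure D1:**
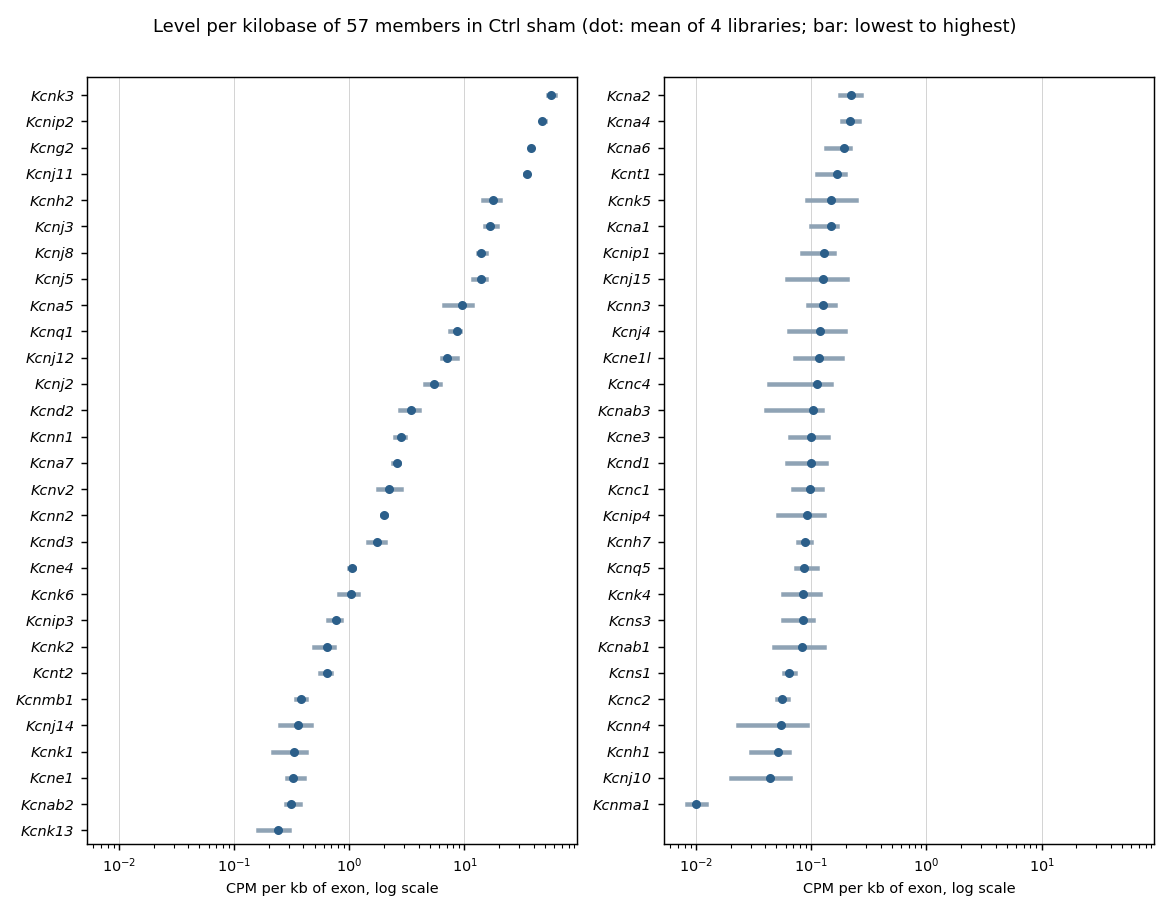
Level of each of 57 members in the 4 Ctrl sham libraries, in CPM per kilobase of exon on a log axis, with dots for the mean and bars from the lowest to the highest library. Kcnk3, Kcnip2, Kcng2 and Kcnj11 lead the order, and 14 of those drawn lie below 0.1 CPM per kb.

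Of the potassium channel genes called after TAC, more were lower than higher in both genotypes. Differences were tested gene by gene with edgeR's quasi-likelihood test over all 18275 genes, and a member was called where its p, adjusted by Benjamini-Hochberg, fell under 0.05. In Ctrl hearts 14 of the 61 members were called, 3 higher and 11 lower after TAC, when 20% of all genes tested were called (10.4% higher and 9.6% lower). In KO hearts 27 members were called, 7 higher and 20 lower, against 34.3% of all genes (17.8% higher and 16.5% lower). The members called were 23% of the 61 in Ctrl hearts, near the share of all genes, and 44.3% in KO hearts. Those called lower were 18% in Ctrl and 32.8% in KO hearts, above the share of all genes, and those called higher 4.92% and 11.5%, below it. Of all 61 members, 32 in Ctrl and 39 in KO hearts had a log2 fold change below 0, as had 49.4% and 50.5% of all genes tested. The median log2 fold change of the members was -0.03 in Ctrl and -0.15 in KO hearts, where that of all genes tested was 0.00 in both. Without Ctrl TAC 2 the count in Ctrl hearts was 19, and without the library labelled KO TAC 4 the count in KO hearts was 24. The shares of all genes called in these 2 fits are not given here, so these counts cannot be set against them.

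All 14 members called in Ctrl hearts were also called in KO hearts, in the same direction. Among the 11 lower ones were Kcnv2, Kcnip2, Kcnd2, Kcnd3, Kcnj2, Kcnj3, Kcna2, Kcnt1 and Kcnj11, and the higher ones were Kcnj14, Kcne1 and Kcnn3. A further 13 were called in KO hearts alone, 9 lower and 4 higher, but the interaction of genotype and surgery was called for 0 of the 61 members, so that a difference between the genotypes in their response was not shown. The remaining 34 members were called in no comparison.

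**Figure D2:**
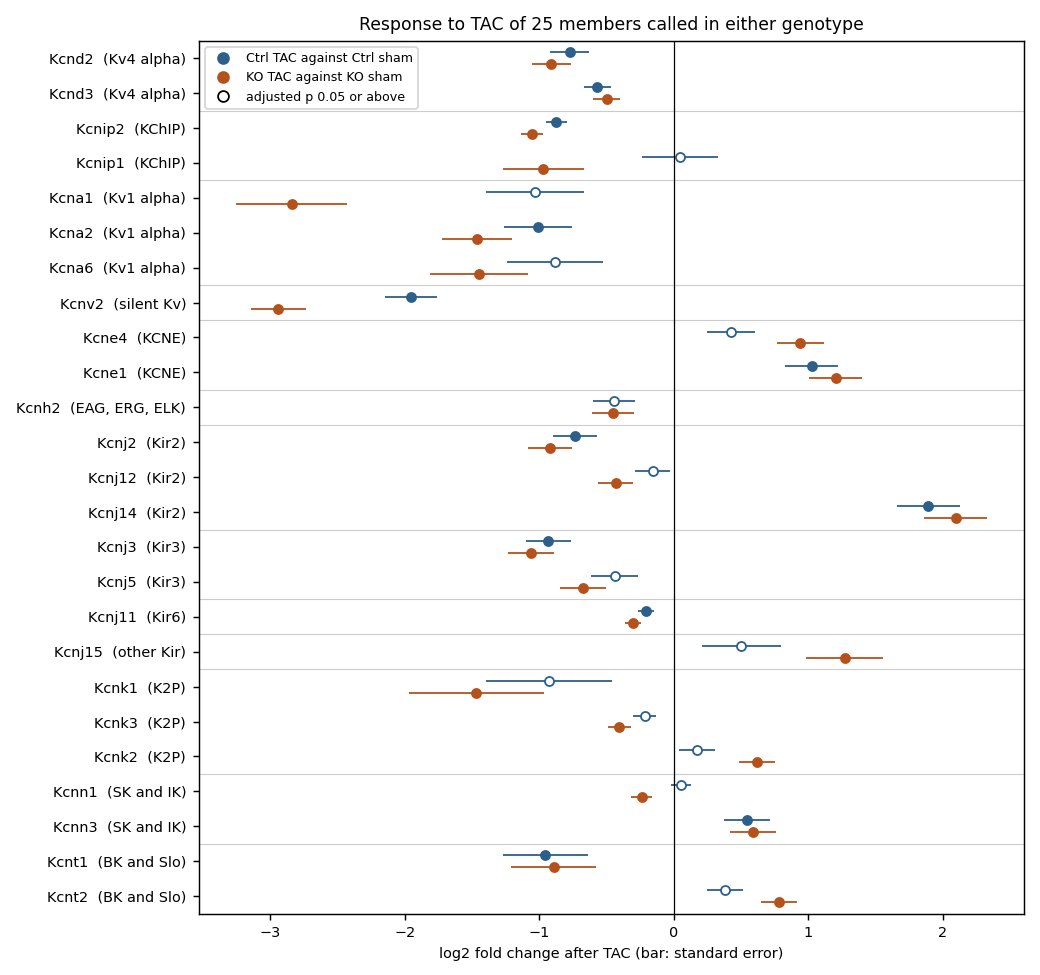
Log2 fold change after TAC of 25 called members, ordered by role, in Ctrl (blue) and KO hearts (orange), with bars for the standard error and open circles where the adjusted p was 0.05 or above. Kcnv2 lies furthest to the left in both genotypes and Kcnj14 furthest to the right.

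The stretches upstream of the start are given for 4 members that fell in both genotypes and encode subunits of the transient outward and resting currents. RefSeq promoter windows (GRCm38.p6) were present for 44 of the 61 members, 63 windows in all. The 17 members without a window include Kcnv2, Kcnj14, Kcne1, Kcnj11 and Kcnk3, so the motif counts below leave these genes out. The 150 bases before the start of Kcnd2, Kcnd3, Kcnip2 and Kcnj2 lie in no annotated exon, and are printed with capitals for matches on either strand to the letters GGGCGG (a GC box) or GGAAA (the core bound by NFAT).
Kcnd2 (chr6:21215196-21215345, plus strand): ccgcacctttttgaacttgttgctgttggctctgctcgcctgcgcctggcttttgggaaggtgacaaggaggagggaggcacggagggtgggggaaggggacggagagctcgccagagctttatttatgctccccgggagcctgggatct
Kcnd3 (chr3:105451740-105451889, plus strand): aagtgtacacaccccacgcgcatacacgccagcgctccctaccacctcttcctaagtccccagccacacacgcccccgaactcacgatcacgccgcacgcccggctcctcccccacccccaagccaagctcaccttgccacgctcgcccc
Kcnip2 (chr19:45816064-45816213, minus strand): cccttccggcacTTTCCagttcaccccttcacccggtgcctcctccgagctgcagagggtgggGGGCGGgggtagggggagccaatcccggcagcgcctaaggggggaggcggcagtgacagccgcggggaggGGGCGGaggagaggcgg
Kcnj2 (chr11:111066014-111066163, plus strand): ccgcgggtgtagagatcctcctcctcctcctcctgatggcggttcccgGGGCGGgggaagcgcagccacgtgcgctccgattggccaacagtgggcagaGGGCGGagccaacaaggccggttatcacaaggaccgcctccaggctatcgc

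In the 250 bases before the start, GGGCGG was matched in 7 of 16 windows of members that fell after TAC, 1 of 8 of those that rose, 20 of 39 of those not called, and 32.7% of all 32851 windows. GGAAA was matched in 7 of 16, 5 of 8 and 19 of 39, and in 55.6% of all windows. TATAAA was matched in 0 of the 63 windows of members and in 12.4% of all windows. TGACGTCA (1.55% of all windows), the MEF2 motif (1.69%) and the CArG box (1.47%) were matched in 0 of the 63 windows. Windows of 1 gene can overlap, and a match is a description of the letters only.

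Of the 3 Kv4 genes, which form the pore of the transient outward channel, 2 were called lower in both genotypes, and of the 4 KChIP genes, its auxiliary subunits, 1 was called lower in Ctrl and 2 in KO hearts. Kcnd2, which encodes Kv4.2, was at 20.8, 18.4, 14.3 and 17.7 CPM in the Ctrl sham libraries, 16.5, 19.2, 12.6 and 17 CPM in KO sham, 8.55, 11.1, 12.3 and 9.82 CPM in Ctrl TAC and 10.6, 8.19, 7.41 and 8.48 CPM in KO TAC. Every TAC library lay below every sham library, with log2 fold changes of -0.77 ± 0.14 (SE) in Ctrl (adjusted p = 0.00113) and -0.91 ± 0.15 in KO hearts (adjusted p = 0.000129). Kcnd3, which encodes Kv4.3, was at 14 to 19.7 CPM in Ctrl sham, 14.3 to 17.5 in KO sham, 10.2 to 12.2 in Ctrl TAC and 10.4 to 12 in KO TAC, again with no overlap between sham and TAC. Its log2 fold changes were -0.57 ± 0.10 (adjusted p = 0.000474) and -0.50 ± 0.10 (adjusted p = 0.000712). The third Kv4 gene, Kcnd1, lay at 0.328 to 0.71 CPM in Ctrl sham and was not called, with log2 fold changes of 0.34 and 0.24.

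Kcnip2 had the smallest adjusted p of all members in Ctrl hearts. It was at 165, 173, 160.1 and 159.6 CPM in the Ctrl sham and 179, 180.1, 169 and 162 CPM in the KO sham libraries, and at 97.9, 89.2, 87.1 and 85.3 CPM in Ctrl TAC and 96.6, 89.9, 74.5 and 71.3 CPM in KO TAC. The TAC mean was 54.6% of the sham mean in Ctrl hearts and 48.1% in KO hearts. The log2 fold changes were -0.87 ± 0.08 (adjusted p = 6.43e-07) and -1.06 ± 0.08 (adjusted p = 2.67e-08). Of the other KChIP genes, Kcnip1 was called lower in KO hearts only (-0.97 ± 0.30, adjusted p = 0.0177) at a level of 0.313 to 0.414 CPM in KO TAC. The KO sham and KO TAC libraries overlapped in Kcnip1. Kcnip3 (log2 fold changes of -0.40 and -0.49) and Kcnip4 (-0.12 and 0.16) were not called, although without Ctrl TAC 2 Kcnip3 was called lower in Ctrl hearts with -0.72 (adjusted p = 0.0191).

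Kcnv2 carried the lowest log2 fold change of the family. It encodes Kv8.2, an electrically silent subunit that gives no current alone and joins other Kv subunits. The gene was at 14.4, 9.01, 9.68 and 11.8 CPM in the Ctrl sham and 10.4, 9.71, 8.38 and 14 CPM in the KO sham libraries. It was at 2.97, 2.75, 3.57 and 2.31 CPM in Ctrl TAC and at 1.57, 1.67, 0.982 and 1.31 CPM in KO TAC, so that all 4 KO TAC libraries lay below all 4 Ctrl TAC libraries and all TAC libraries below all sham libraries. The log2 fold change was -1.96 ± 0.19 in Ctrl hearts (adjusted p = 2.65e-06) and -2.94 ± 0.21 in KO hearts (adjusted p = 2.57e-08), and both were called in all 24 alternative settings at the 0.05 threshold.

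Of the other silent subunits, Kcng2, Kcns1 and Kcns3, 0 of 3 were called. Kcng2, a silent subunit among the most abundant members, was at 114 ± 0.726 CPM in Ctrl sham, 115 ± 5.9 in KO sham, 115 ± 15.4 in Ctrl TAC and 102 ± 9.16 in KO TAC. It was not called (0.02 and -0.17, adjusted p = 0.882 and 0.0966). Without Ctrl TAC 2, where it was at its highest with 138 CPM, the KO response was called at -0.17 (adjusted p = 0.0245), and without KO TAC 3 at -0.22 (adjusted p = 0.0426). Kcns1 ran from 0.156 to 0.195 CPM and Kcns3 from 0.181 to 0.328 CPM in Ctrl sham.

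Of the 6 Kv1 genes, 1 was called lower in Ctrl and 3 in KO hearts. Kcna5, which encodes the pore of a slowly inactivating current of the mouse ventricle, was not called, with log2 fold changes of 0.05 ± 0.19 and -0.15 ± 0.19 at 18.8 to 33.5 CPM in Ctrl sham and 19.3 to 34.5 CPM in Ctrl TAC. Kcna4, the pore of the slow transient outward current, was at 0.891 to 1.27 CPM in Ctrl sham and 0.985 to 1.93 CPM in Ctrl TAC, and its log2 fold changes of 0.65 ± 0.25 (adjusted p = 0.073) and 0.46 ± 0.24 (adjusted p = 0.154) did not pass the test. Without Ctrl TAC 1 it was called in Ctrl hearts with 0.82 (adjusted p = 0.0196), and without KO sham 1 in KO hearts with 0.73 (adjusted p = 0.0265).

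Kcna2, Kcna1 and Kcna6 are best known from axons, and all 3 fell in KO hearts, Kcna2 also in Ctrl hearts. Kcna2 was at 2.84, 3.25, 2.28 and 2.13 CPM in Ctrl sham and 1.14, 2.14, 1.11 and 0.836 CPM in Ctrl TAC, where Ctrl TAC 2 overlapped the sham libraries, and at 2.28, 2.62, 2.44 and 2.65 CPM in KO sham against 0.846, 0.666, 0.706 and 1.36 CPM in KO TAC, with no overlap. The log2 fold changes were -1.01 ± 0.25 (adjusted p = 0.00861) and -1.46 ± 0.26 (adjusted p = 0.000275). Kcna1 was called in KO hearts alone, at 0.664, 1.01, 0.792 and 0.808 CPM in KO sham and 0.0445, 0.0812, 0.092 and 0.217 CPM in KO TAC (-2.84 ± 0.41, adjusted p = 3.25e-05). The library labelled KO TAC 4 was the highest of its group in both genes, and without it the KO log2 fold changes were -1.75 for Kcna2 (adjusted p = 8.27e-05) and -3.47 for Kcna1 (adjusted p = 1.42e-05). In Ctrl hearts the log2 fold change of Kcna1 was -1.03 ± 0.36 (adjusted p = 0.0545), and the interaction of -1.81 ± 0.55 had an adjusted p of 0.248. Kcna6 was also called in KO hearts alone (-1.45 ± 0.36, adjusted p = 0.00467; Ctrl -0.89 ± 0.36, adjusted p = 0.0915). The 4 Schwann cell markers, from cells that wrap axons, summed to 6.81 to 8.42 CPM in the sham libraries and 3.00 to 4.28 CPM in KO TAC, with 2 of the 4 called lower there, and their part in these falls was not tested. Kcna5, Kcna1 and Kcna6 lie next to each other on chromosome 6, from 126532551 to 126740674 in GRCm38. Kcna7 was not called (-0.08 and -0.28). In KO hearts it was called lower without KO sham 3 (-0.40, adjusted p = 0.0312) and with animal numbers starting with 33 as a term (-0.49, adjusted p = 0.0474).

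Among the Kv beta genes, whose products bind Kv1 channels from the inside, 0 of 3 were called in either genotype. Kcnab1 was at 0.406 to 1.12 CPM in Ctrl sham, with log2 fold changes of 0.13 ± 0.42 and -0.10 ± 0.43.

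Of the slow delayed rectifier the auxiliary subunit rose, and the pore was not called. Kcnq1, the pore of the slow delayed rectifier, was at 34.9 ± 2.8 CPM in Ctrl sham, 32.1 ± 4.19 in KO sham, 33.3 ± 7.81 in Ctrl TAC and 31.5 ± 3.61 in KO TAC and was not called (-0.07 ± 0.15 and -0.03 ± 0.15). Its auxiliary subunit Kcne1, which slows the opening of the channel, was at 1.29, 0.984, 0.93 and 0.939 CPM in the Ctrl sham and 1.14, 0.84, 1.03 and 1.14 CPM in the KO sham libraries, and at 2.11, 1.46, 2.36 and 2.53 CPM in Ctrl TAC and 1.69, 2.58, 2.58 and 2.71 CPM in KO TAC. No TAC library overlapped a sham library, and the log2 fold changes were 1.02 ± 0.20 (adjusted p = 0.0011) and 1.20 ± 0.20 (adjusted p = 0.000111). A second KCNE gene, Kcne4, which inhibits several Kv channels, was called higher in KO hearts (0.94 ± 0.17, adjusted p = 0.000404), from 2.78, 3.76, 2.12 and 3.22 CPM to 5.66, 5.81, 7.39 and 3.92 CPM. Without the library labelled KO TAC 4 this was 1.08 (adjusted p = 6.55e-05). In Ctrl hearts its TAC libraries also lay above the sham libraries (0.43 ± 0.18, adjusted p = 0.102), without passing the test. The 6 fibroblast markers were called higher in 3 cases in Ctrl and in 6 cases in KO hearts.

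Kcnh2, the pore of the rapid delayed rectifier, was called lower in KO hearts, from 84.4, 64.9, 69.3 and 86.7 CPM in KO sham to 52.9, 48.7, 63.2 and 58.3 CPM in KO TAC (-0.45 ± 0.16, adjusted p = 0.0352). Without the library labelled KO TAC 4 the adjusted p was 0.0539. In Ctrl hearts the log2 fold change was -0.45 ± 0.15 (adjusted p = 0.0565), and without Ctrl TAC 2 it was -0.54 (adjusted p = 0.0358).

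Of the 4 genes of classical inward rectifiers, 1 was called higher, 1 lower and 2 not at all in Ctrl hearts, and 1 was called higher and 2 lower in KO hearts. Kcnj2, which encodes Kir2.1 and carries most of the resting current, was at 31.3, 33.6, 24.9 and 27.6 CPM in Ctrl sham and 21, 17.4, 15.3 and 16.9 CPM in Ctrl TAC. In KO hearts it was at 23.8, 25.7, 36.1 and 28.8 CPM in sham and 12.1, 12, 19.1 and 17.1 CPM in TAC. Sham and TAC did not overlap in either genotype, and the log2 fold changes were -0.74 ± 0.16 (adjusted p = 0.00529) and -0.92 ± 0.17 (adjusted p = 0.000515). The related Kcnj12 (Kir2.2) was called lower in KO hearts only (-0.43 ± 0.13, adjusted p = 0.0144), with -0.16 ± 0.13 in Ctrl hearts (adjusted p = 0.434).

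Kcnj14, which encodes Kir2.4, had the highest log2 fold change of the family. It was at 1.02, 0.922, 0.676 and 1.25 CPM in the Ctrl sham and 1.33, 0.857, 0.792 and 1.23 CPM in the KO sham libraries, and at 2.39, 3.53, 3.33 and 5.03 CPM in Ctrl TAC and 5.18, 3.98, 3.61 and 5.22 CPM in KO TAC. All TAC libraries lay above all sham libraries. The TAC mean was 3.69 times the sham mean in Ctrl hearts, and the log2 fold changes were 1.89 ± 0.24 in Ctrl (adjusted p = 2.01e-05) and 2.09 ± 0.23 in KO hearts (adjusted p = 2.09e-06). Per kilobase it stayed below Kcnj2 in every group, at 1.31 ± 0.401 against 3.24 ± 0.436 CPM per kb in Ctrl TAC. Kcnj14 lies on chromosome 7 at 45816460 to 45824782, between Kcna7, which was not called, and Kcnj11, which fell. The fourth member, Kcnj4, was not called (0.24 and -0.49).

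**Figure D3:**
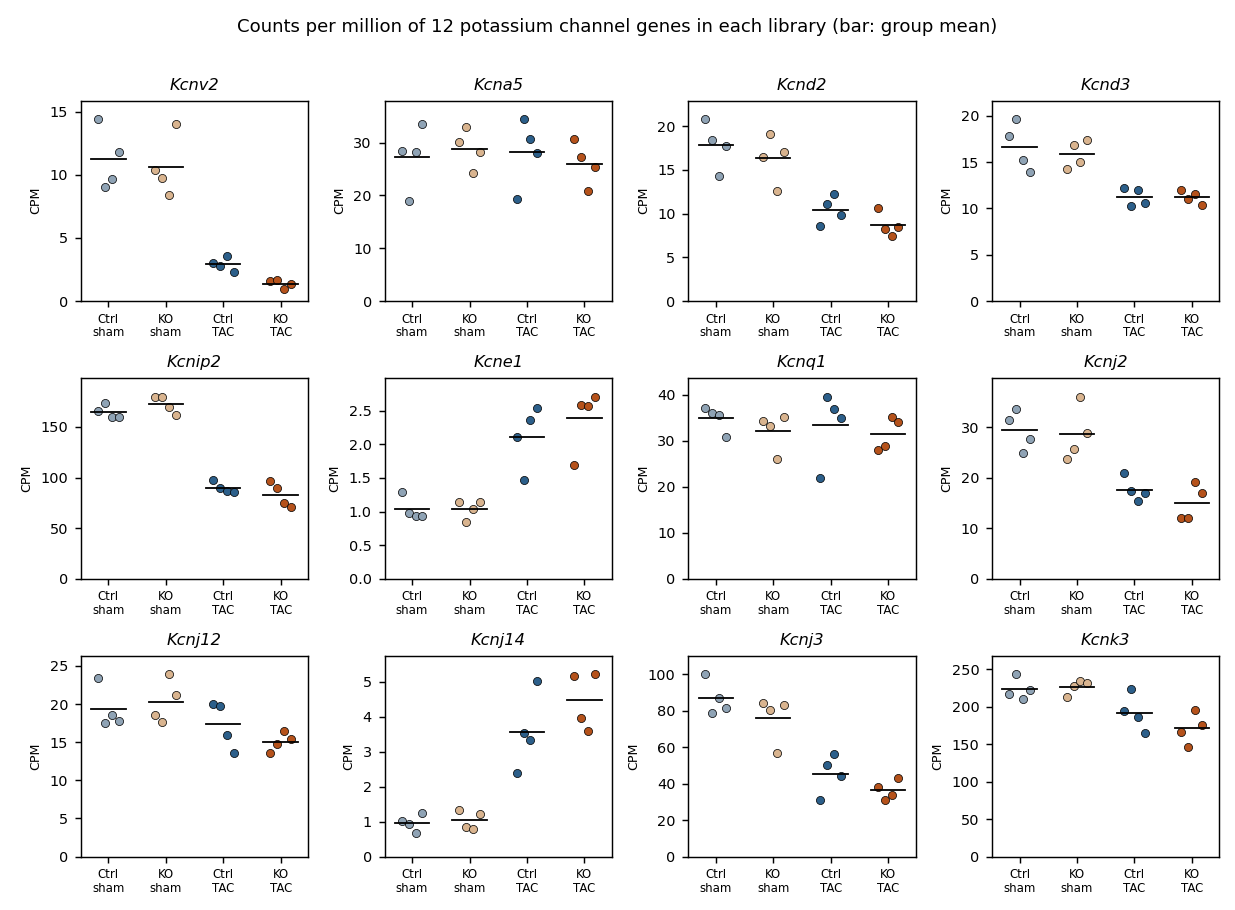
CPM of 12 members in each of the 16 libraries, with a dot for each library and a bar for the group mean. In Kcnv2, Kcnd2, Kcnd3, Kcnip2 and Kcnj2 the TAC libraries lie below the sham libraries, in Kcne1 and Kcnj14 above them, and Kcna5 and Kcnq1 overlap.

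The G protein gated channels, which answer to acetylcholine, are formed by Kcnj3 and Kcnj5. Kcnj3 was at 100.1, 78.9, 87.1 and 81.8 CPM in the Ctrl sham libraries, 84.3, 80.8, 56.9 and 83.5 CPM in KO sham, 31.2, 50.5, 56.5 and 44 CPM in Ctrl TAC and 38.1, 31.3, 33.8 and 43.2 CPM in KO TAC. In each genotype its TAC libraries lay below its sham libraries, with log2 fold changes of -0.93 ± 0.17 (adjusted p = 0.00139) and -1.06 ± 0.17 (adjusted p = 0.00024). Kcnj5 was called lower in KO hearts (-0.68 ± 0.17, adjusted p = 0.00726), and its log2 fold change in Ctrl hearts was -0.44 ± 0.17 (adjusted p = 0.09). Of the ATP-sensitive channels, Kcnj11 fell by a small amount, from 129.6, 132, 122 and 126 CPM to 103, 121, 111 and 106 CPM in Ctrl hearts (-0.21 ± 0.06, adjusted p = 0.0165) with -0.30 ± 0.06 in KO hearts (adjusted p = 0.000571). Kcnj8, the pore of the vascular form, was at 35.8 ± 2.44 CPM in Ctrl sham and 36.1 ± 2.05 CPM in Ctrl TAC and was not called (0.01 ± 0.06 and -0.04 ± 0.06). Kcnj15 rose in KO hearts, from 0.569, 1.15, 0.964 and 0.615 CPM to 1.48, 2.18, 2.03 and 2.27 CPM (1.27 ± 0.29, adjusted p = 0.00203), with 0.50 ± 0.29 in Ctrl hearts (adjusted p = 0.254), and Kcnj10 was not called.

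Among the 7 leak channels of the K2P family, calls were made in KO hearts only. Kcnk3, which encodes the acid-sensitive leak channel of cardiomyocytes, was at 213, 227, 234 and 232 CPM in KO sham and 166, 147, 195 and 176 CPM in KO TAC, with no overlap (-0.40 ± 0.09, adjusted p = 0.00139). In Ctrl hearts the log2 fold change was -0.22 ± 0.09 (adjusted p = 0.0904), and without Ctrl TAC 2 it was -0.30 (adjusted p = 0.016). Its exons share 229 bases with a gene on the other strand. Kcnk2, a stretch-sensitive channel, rose in KO hearts from 3.3, 2.66, 2.84 and 3.32 CPM to 4.89, 5.05, 4.46 and 4.22 CPM (0.62 ± 0.13, adjusted p = 0.00146), and in Ctrl hearts its log2 fold change was 0.17 ± 0.13 (adjusted p = 0.415). Kcnk1 was called lower in KO hearts (-1.47 ± 0.50, adjusted p = 0.031), where KO sham ran from 0.206 to 1.02 CPM and overlapped KO TAC. The other 4, Kcnk4, Kcnk5, Kcnk6 and Kcnk13, were not called. In Ctrl hearts Kcnk6 was called higher by DESeq2 (0.32, adjusted p = 0.0411) and with animal numbers starting with 33 as a term (0.37, adjusted p = 0.0305). It was also called without Ctrl sham 4 (0.40, adjusted p = 0.0290) and without Ctrl TAC 1 (0.40, adjusted p = 0.0211).

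Channels gated by calcium or sodium had calls in both directions. Of the small-conductance genes, Kcnn3 rose in both genotypes (0.55 ± 0.17, adjusted p = 0.031, and 0.59 ± 0.17, adjusted p = 0.0127) at 0.978 to 1.68 CPM in Ctrl sham and 1.63 to 2.32 CPM in Ctrl TAC. Kcnn1 was called lower in KO hearts (-0.24 ± 0.08, adjusted p = 0.0225), a call that was lost without the library labelled KO TAC 4 (adjusted p = 0.0536). Kcnn2 was not called (-0.26 ± 0.22 and -0.39 ± 0.22). Kcnt1, a sodium-activated channel best known from neurons, was called lower in both genotypes (-0.95 ± 0.31, adjusted p = 0.0388, and -0.89 ± 0.32, adjusted p = 0.0373), although in each the groups overlapped and the call was lost in 5 and 6 of the 16 fits that left out a library. Its relative Kcnt2 rose in KO hearts, from 5.25, 4.08, 4.55 and 4.6 CPM to 7.91, 8.07, 7.38 and 8.41 CPM (0.78 ± 0.14, adjusted p = 0.000206), with 0.38 ± 0.14 in Ctrl hearts (adjusted p = 0.0596). Without Ctrl TAC 2, which was the lowest of its group with 3.88 CPM, the response in Ctrl hearts was 0.52 (adjusted p = 0.00187). Kcnma1 was at 0, 1.31, 0.182 and 0.265 CPM in Ctrl TAC, highest in Ctrl TAC 2, and was not called, as was Kcnmb1.

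Across the members the responses of both genotypes can be set side by side, each against its own sham group. Of the 14 members called in both, 10 lay further from 0 in KO than in Ctrl hearts, as did all 13 called in KO hearts alone, which the choice of these members in part fixes. A larger response in KO hearts was not particular to the members. The median absolute log2 fold change of all genes tested was 0.18 in Ctrl and 0.23 in KO hearts, and that of the members 0.38 and 0.41. Among those 13, Kcnip1 and Kcnn1 had a log2 fold change above 0 in Ctrl hearts (0.04 and 0.05) and below 0 in KO hearts.

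**Figure D4:**
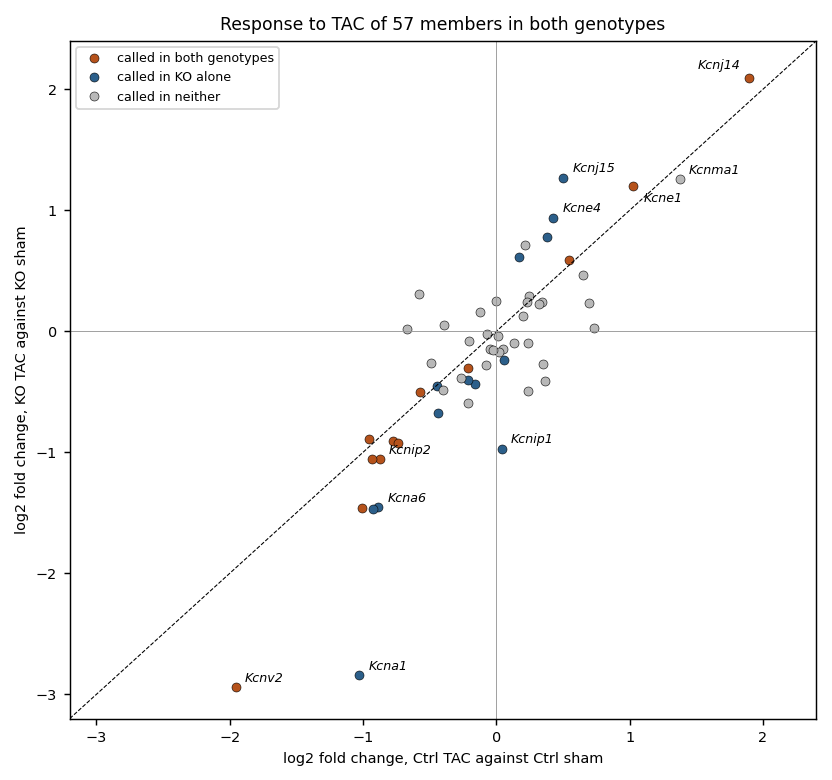
Log2 fold change after TAC of 57 members in Ctrl (horizontal axis) and KO hearts (vertical axis), with colours for members called in both genotypes, in KO alone or in neither. The dashed line marks equal change. Kcnv2 and Kcna1 lie below it, at -1.96 and -1.03 in Ctrl and -2.94 and -2.84 in KO hearts.

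Some of the calls after TAC rested on single libraries. In Ctrl hearts 10 of the 14 calls were kept whichever library was left out, and in KO hearts 20 of the 27. The Ctrl call of Kcnj11 was lost without Ctrl TAC 1 or Ctrl TAC 4 (adjusted p up to 0.0565), and that of Kcnn3 without Ctrl sham 2, Ctrl sham 4, Ctrl TAC 1 or Ctrl TAC 4 (up to 0.0972). The KO call of Kcnj12 was lost without KO sham 3 (0.0528), that of Kcnip1 without KO sham 2 or KO sham 4 (up to 0.0703), and that of Kcnk1 without KO sham 2, KO sham 4, KO TAC 1, KO TAC 2 or KO TAC 3 (up to 0.139). Kcnh2 also lost its KO call without KO sham 1, KO sham 4, KO TAC 1 or KO TAC 2 (up to 0.0989) and Kcnn1 without KO sham 3 or KO TAC 3 (up to 0.081). The falls of Kcnv2, Kcnip2, Kcnd2, Kcnd3, Kcnj2 and Kcnj3 and the rises of Kcnj14 and Kcne1 were called in both genotypes in each of these fits.

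In KO TAC against Ctrl TAC hearts 2 of the 61 members were called, Kcnv2 and Kcnip1, both lower, where 2.68% of all genes were called (1.32% lower). At an unadjusted p under 0.05 there were 13, but the share of all genes at that threshold is not given here, so this count shows nothing particular to the members. Kcnv2 had a log2 fold change of -1.07 ± 0.21 (adjusted p = 0.0172), and its mean in KO TAC was 47.7% of that in Ctrl TAC. With the library labelled KO TAC 4 left out, this was -1.04 (adjusted p = 0.0355). The call was lost without Ctrl TAC 2 (adjusted p = 0.0553), without KO TAC 3 (adjusted p = 0.0611) and with the series of the animal numbers as a term (adjusted p = 0.102), with the direction kept in each. Kcnip1 was at 0.704, 0.941, 0.76 and 0.863 CPM in Ctrl TAC and 0.342, 0.374, 0.414 and 0.313 CPM in KO TAC, with no overlap (-1.18 ± 0.30, adjusted p = 0.0418). It was called in 7 of the 16 fits that left out a library, and without the library labelled KO TAC 4 its adjusted p was 0.0873. Kcna1 (-1.60 ± 0.43, adjusted p = 0.0514), Kcnt2 (0.48 ± 0.13, adjusted p = 0.0575) and Kcne4 (0.59 ± 0.17, adjusted p = 0.0704) did not pass the test with all libraries. Without the library labelled KO TAC 4, where 3 members were called, Kcna1 (-2.23, adjusted p = 0.02) and Kcne4 (0.73, adjusted p = 0.0246) were called beside Kcnv2, whereas Kcnt2 was not (0.46, adjusted p = 0.116).

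In unloaded hearts, KO sham against Ctrl sham, 0 of the 61 members were called by edgeR and 0 by DESeq2. Of the members 0 had an unadjusted p under 0.05, and 0.0% of all genes were called by edgeR. Cardinal was therefore not called either, although its highest KO sham level (0.553 CPM) lay far below its lowest Ctrl sham level (3.24 CPM). This contrast thus missed the deleted gene itself, and the lack of calls does not show that unloaded hearts of both genotypes are alike. The log2 fold changes of the members ran from -0.92 for Kcnma1 to 0.41 for Kcnd1. The interaction, which asks whether the response to TAC differs between the genotypes, was called for 0 members by edgeR, where 0.0109% of all genes were called. The share of all genes at an unadjusted p under 0.05 is not given here, and 5 members lay below that threshold. These were Kcnv2 (-0.98 ± 0.28, adjusted p = 0.236), Kcna1, Kcnip1, Kcnn1 and Kcnk2. DESeq2 called 1 interaction, that of Kcnv2 (-0.99, adjusted p = 0.0434).

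Ratios between subunits of the same kind of channel were formed per kilobase in each library, so that library scaling cancels. Kcne1 to Kcnq1 was 0.0444, 0.0347, 0.0333 and 0.0388 in Ctrl sham, 0.123, 0.0471, 0.0815 and 0.0927 in Ctrl TAC, 0.0423, 0.0323, 0.0507 and 0.0415 in KO sham and 0.077, 0.114, 0.0935 and 0.101 in KO TAC, higher after TAC in both genotypes with no overlap. Kcnj2 to Kcnj12 lay below the sham range in both genotypes, from a mean of 0.777 to 0.522 in Ctrl and from 0.709 to 0.503 in KO hearts. Kcnj8 to Kcnj11 was higher in Ctrl TAC than in Ctrl sham (means of 0.474 and 0.405, with no overlap). In KO hearts TAC and sham overlapped in this ratio (means of 0.495 and 0.408, exact permutation p = 0.0571, adjusted 0.125). Kcnj8 is the pore of the vascular form, so its ratio to Kcnj11 need not describe 1 channel. The part of cell make-up in this ratio was not tested.

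For these 5 cases, 2 each of Kcne1 to Kcnq1 and Kcnj2 to Kcnj12 and the Ctrl one of Kcnj8 to Kcnj11, the exact two-sided permutation test gave p = 0.0286, the smallest that 70 relabellings allow, and an adjusted p of 0.0857 over the 24 ratio tests, so that 0 ratio tests passed after adjustment. The ratio of Kcnip2 to the sum of Kcnd2 and Kcnd3 overlapped between sham and TAC in both genotypes, with means of 9.21 in Ctrl sham, 8.15 in Ctrl TAC, 10.4 in KO sham and 8.36 in KO TAC. That of Kcnd2 to Kcnd3 overlapped too, with means of 2.00, 1.74, 1.91 and 1.44 in the same order. The level of this ratio rests on merged exon lengths of 5152 bases for Kcnd2 and 9587 for Kcnd3.

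**Figure D5:**
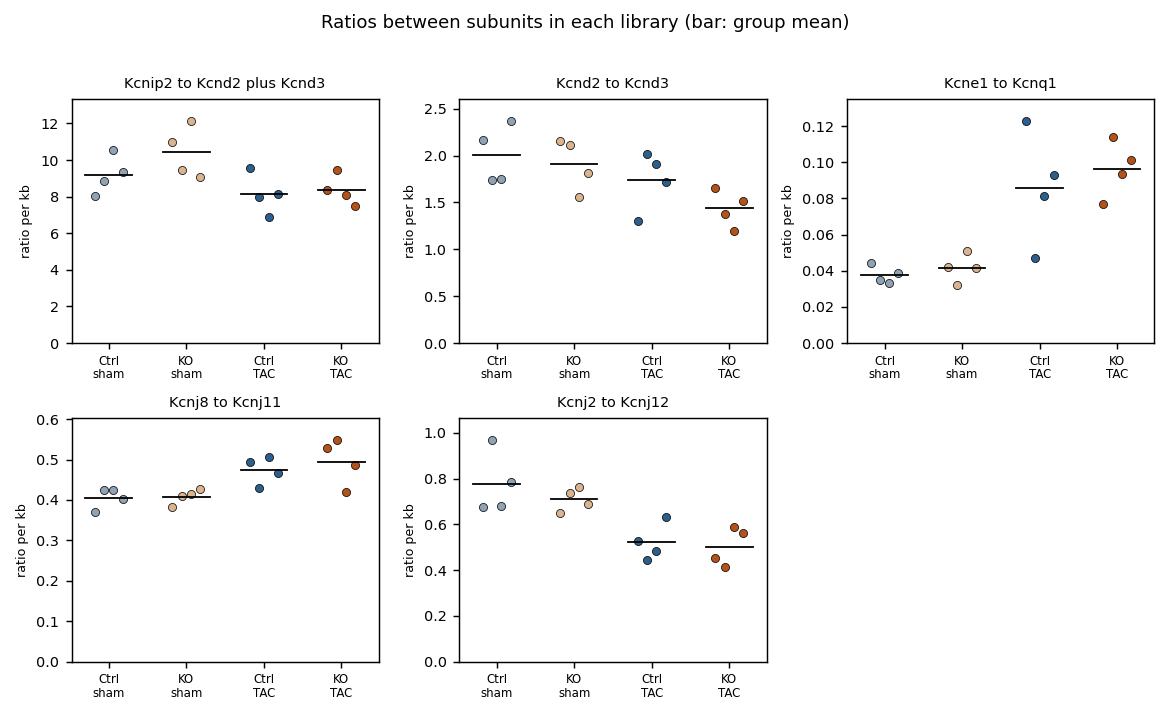
Ratios between subunits in each library, from CPM per kilobase, with a dot for each library and a bar for the group mean. Kcnj2 to Kcnj12 is lower and Kcne1 to Kcnq1 is higher in every TAC library than in the sham libraries of its genotype.

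Other genes of potassium channel complexes, of their trafficking and of their transcriptional control were counted from a list of 23. None is a member, and 20 were tested. In Ctrl hearts 2 of the 20 were called higher and 8 lower after TAC, where 10.4% and 9.6% of all genes tested were. In KO hearts 5 were called higher and 8 lower, where 17.8% and 16.5% of all genes were. Between the genotypes 0 were called in TAC hearts, where 2.68% of all genes were, and 0 in sham hearts, where 0.0% were. Abcc9, the sulphonylurea receptor that surrounds the pore of the ATP-sensitive channel, was at 415 ± 16.2 CPM in Ctrl sham and 266 ± 20.9 CPM in Ctrl TAC and fell in both genotypes (-0.64, adjusted p = 4.94e-06, and -0.78, adjusted p = 1.97e-07). Its relative Abcc8 had log2 fold changes of -0.26 (adjusted p = 0.0425) and -0.24 (adjusted p = 0.0377). Fgf13 (-0.62 and -0.71), Rnf207 (-0.46 and -0.54), Amigo1 (-0.26 and -0.37), Lrrc52, Nedd4l and Dlg1 were also called lower in both. Cav3, caveolin of muscle (0.46 and 0.36), and Dlg4 (0.48 and 0.42) were called higher in both. The Iroquois factors Irx3 (-0.21 and -0.10) and Irx5, a known repressor of Kcnd2 (0.14 and 0.23), were not called, and Irx4 was called higher in KO hearts (0.29, adjusted p = 0.0159).

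Of the 26 members outside the rule for named genes, Kcns3 had a log2 fold change of -0.67 in Ctrl hearts and Kcne3 of 0.72 in KO hearts. Their smallest adjusted p was 0.0615 (Kcnk6) in Ctrl and 0.0966 (Kcng2) in KO hearts, and 12 and 13 of them lay below 0 on the log2 scale. Beside those already described they were Kcna7, Kcnab2, Kcnab3, Kcnc1, Kcnc2, Kcnc4, Kcne1l, Kcne3, Kcnh1, Kcnh7, Kcnn4 and Kcnq5. Without Ctrl TAC 2, Kcnh7 was called lower in Ctrl hearts, with -0.87 (adjusted p = 0.0470).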

How the data were processed

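The values used were whole-number read counts, which the authors deposited without normalization in 1 table, genes by animals. Per the labels, poly(A)-selected libraries were read as paired 150-base reads, and the submitters' processing notes name cutadapt 2.3, FastQC, HISAT2 2.1.0, edgeR 3.26.1 and GRCm38. The counting program, its annotation and its use of strand are not given in the sources used here. Exons of 23 members overlap another gene.

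Symbols, positions and exon lengths came from GENCODE M21 (99.5% of identifiers). Counts were filtered with filterByExpr, scaled by TMM and fitted in edgeR 4.0.16 (R 4.3.3) with glmQLFit (robust) and 1 mean for each of 4 groups over 16 libraries. The 5 contrasts were tested with glmQLFTest, two-sided, with Benjamini-Hochberg adjustment over 18275 genes. The fit was tested on simulated data. CPM are counts divided by the TMM-scaled library total and scaled to a common size. Columns were matched to samples by animal number. Replicates were numbered in sample order and pair nothing.

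Ratios and Cardinal were compared with exact two-sided permutation tests. Named genes were 20 preset members and the other 15 called ones, beside the rest by count. Some members enter the counts and are not reported here. The members, gene lists and tests were chosen with earlier results of these data known. Alternatives were RLE size factors, DESeq2 1.42.0, 2 other count filters, an adjusted p under 0.01, 2 terms made from the animal numbers (those starting with 25, which are Ctrl TAC 2, 3 and 4 and KO TAC 4, and those starting with 33, which are Ctrl sham 4 and KO sham 1, 2 and 3), fits to the 8 libraries compared, and the omission of each library or of Ctrl TAC 2 and KO TAC 4 together. The labels do not say what the series of numbers mean. No sham library has a number starting with 25, so that series is partly confounded with TAC and, among TAC hearts, with genotype.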

Additional observations from a re-analysis of the deposited data

Results flagged for a closer look

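In 11 of the 128 sets of 4 libraries of a named member, 1 library lay far from the other 3 by Dixon's test, where chance would give about 6.4. In Ctrl TAC 1, Kcna4 (0.985 CPM, others 1.77 to 1.93), Kcne4 (3.11 CPM, others 3.95 to 4.11) and Kcna6 (0.211 CPM, others 0.745 to 0.780) were low. In Ctrl sham 1, Kcne1 (1.29 CPM, others 0.930 to 0.984) and Kcnj12 (23.4 CPM, others 17.5 to 18.5) were high. Kcna1 was low in Ctrl sham 3 (0.473 CPM, others 0.780 to 0.797) and Kcna6 in Ctrl sham 4 (0.802 CPM, others 1.24 to 1.30). In KO sham 4, Kcnj11 (129 CPM, others 123.8 to 124.4) and Kcna6 (1.74 CPM, others 1.02 to 1.14) were high, and in KO sham 3 Kcnj3 was low (56.9 CPM, others 80.8 to 84.3). Kcne1 was low in KO TAC 1 (1.69 CPM, others 2.58 to 2.71).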

How the results depend on the processing

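The number of members called after TAC stayed within 1.5 times the reported one in every setting, at 10 to 19 in Ctrl hearts and 19 to 28 in KO hearts. The share of all genes called in each alternative setting is not given here, so a change in these counts is not particular to the members. Leaving out each library in turn gave 10 to 19 and 22 to 28, and 0 for KO sham against Ctrl sham and for the interaction. All 14 and 27 calls kept their direction in every setting, and 9 and 17 of them were called in every setting. For KO TAC against Ctrl TAC, where 2 members were called, DESeq2 called 6, no filter beyond 1 count 1, the animal-number series as a term 0, Ctrl TAC 2 and KO TAC 4 both left out 1 and an adjusted p under 0.01 0. At least 10 counts in every library gave 3, and leaving out each library gave 0 to 5, with 0 without Ctrl TAC 2 and without KO TAC 3, 1 without Ctrl sham 3, KO sham 1, Ctrl TAC 3, KO TAC 1 or KO TAC 2, 3 without KO TAC 4 and 5 without Ctrl TAC 1. DESeq2 called 1 interaction where edgeR called 0. The cause of these changes was not tested. RLE size factors moved no member's log2 fold change by more than 0.00256. No result changed its direction where it was called. No paired analysis was made, because each library came from a different animal and the labels pair none of them. In the 24 members with a mean under 1 CPM the median standard error of the log2 fold change in Ctrl hearts was 0.38, against 0.17 in the other 37.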
